A study of Mus musculus with 12 samples.

Results

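Dclk3, Nfe2, Ranbp3l, Stap1 and Akap6 are 5 genes whose liver signal was far lower after dexamethasone than after vehicle, in both sexes. They were chosen by that loss, the difference between dexamethasone and vehicle arrays in each sex, so the loss itself is described here and not tested. The 5 genes were tested only for the female minus male level averaged over both treatments, a contrast in which the treatment differences cancel. They are 5 of the 19340 genes tested, and 7 of the 41174 probes on the array measure them: 1 probe each for Dclk3, Nfe2 and Ranbp3l, and 2 each for Stap1 and Akap6. The array's own annotation carries older names for 3 of them, Dcamkl3 for Dclk3, C130037N17Rik for Ranbp3l and AI586015 for Stap1, and these were matched through transcript accessions and synonyms. No threshold marked off the 5 genes. Counted from the most negative difference over all 19340 genes, their positions lay between 5 and 18 in males and between 6 and 134 in females, so other genes stand among them.

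RNA came from livers of C57BL/6 mice aged 11 weeks whose adrenal glands had been removed, the controls included, and each array held the RNA of 1 animal. The 4 groups were males given dexamethasone, males given vehicle, females given dexamethasone and females given vehicle, with 3 animals in each. Dexamethasone was injected intraperitoneally at 1 mg/kg, the vehicle was phosphate-buffered saline, livers were collected at 6 h, and the females were in the stage named diestrous 1. Cy3-labelled RNA, made from 500 ng, was read on 1-colour Agilent arrays, so a value is the brightness of a probe's spot and not a count of molecules. Removal of the adrenal glands takes away an animal's main source of its own glucocorticoid, so the vehicle groups stand for a liver with little hormone and not for an intact one.

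Dexamethasone is a synthetic glucocorticoid that binds the glucocorticoid receptor, a transcription factor that raises some genes in the liver and lowers others, among them many genes of inflammation and immunity. The 5 genes are known for work in other cells and share no pathway. Dclk3 encodes a serine/threonine kinase of the doublecortin-like family, described mainly in brain, and Nfe2 encodes the large subunit of NF-E2, a transcription factor that pairs with small Maf proteins and is needed for platelet formation. Ranbp3l encodes a Ran-binding protein that exports SMAD proteins of the BMP pathway from the nucleus, Stap1 an adaptor with an SH2 domain that acts with TEC-family kinases below the B cell receptor, and Akap6 a scaffold that anchors protein kinase A at the nuclear envelope of muscle cells and neurons.

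The probes are shown because they define which part of each transcript was read. They are given 5′ to 3′ in lower case, the whole probe where its mm7 coordinates span a gap longer than the probe, and otherwise its first 30 bases. The coordinates are those in the array design, and no exon or untranslated-region annotation of that build was used here.
Dclk3, chr9:111180417-111182642, plus strand, whole probe: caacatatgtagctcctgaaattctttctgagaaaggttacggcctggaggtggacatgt
Nfe2, chr15:103237506-103237565, minus strand, first 30 bases: gaaccaaaatggaggctacagattgagctg
Ranbp3l, chr15:9124349-9124408, plus strand, first 30 bases: aggatgttagctttgagggaacattctgat
Stap1, first probe, chr5:86033665-86040830, plus strand, whole probe: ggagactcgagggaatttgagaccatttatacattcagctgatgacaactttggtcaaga
Stap1, second probe, chr5:86022508-86022567, plus strand, first 30 bases: ggggggttagctaaattgaaaattgaaagt
Akap6, first probe, chr12:51168161-51168220, plus strand, first 30 bases: tgtcttcatcctacatgtagagaggtgtgt
Akap6, second probe, chr12:51165807-51165866, plus strand, first 30 bases: aagctgcttttgtggtaatattatgttggt
The Dclk3 probe and the first Stap1 probe are 60 bases long and cover 2226 and 7166 bases of the genome, so both run across a gap in the genomic sequence, as a spliced transcript would. The second Stap1 probe lies upstream of the first on the plus strand, outside the interval that the first one covers.

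Over the whole series, the 75th percentile of spot signal, a measure of an array's brightness, was 578 to 788 on male dexamethasone, 821 to 883 on male vehicle, 842 to 910 on female dexamethasone and 822 to 1251 on female vehicle arrays. Levels below are log2 intensities after subtraction of that percentile of the same array, so a negative value means a spot dimmer than that percentile. The male dexamethasone arrays, on which the 5 genes were lowest, were also the 3 dimmest arrays, and the part of this in the results was not tested. The treatment itself was visible in Fkbp5, a standard glucocorticoid receptor target, which rose by 4.45 ± 0.43 in males (limma, SE, adjusted p = 0.000184) and by 3.86 ± 0.43 in females (adjusted p = 0.000595, n = 3 per group). The animals were processed on 3 slides, and on each slide males sat at lower positions than females and vehicle at lower positions than dexamethasone of the same sex, so position cannot be told apart from sex and treatment.

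Dclk3 had normalized levels of −6.06, −6.25 and −5.90 on male dexamethasone arrays, against −1.33, −1.37 and −1.51 on male vehicle arrays. In females it had −2.66, −2.76 and −4.74 after dexamethasone, against −0.99, −0.72 and −1.04 after vehicle. No dexamethasone array reached a vehicle array of its sex. The male and female vehicle arrays lay near each other (means −1.40 and −0.92), while the male and female dexamethasone arrays did not (means −6.07 and −3.39). The SD was 1.17 in females given dexamethasone, against 0.17 in males given dexamethasone. The difference, dexamethasone minus vehicle, was −4.67 ± 0.44 in males (SE from the spread shared by all 4 groups) and −2.47 ± 0.44 in females, a 25.4-fold and a 5.54-fold lower signal. Female dexamethasone array 3, at −4.74, stood apart from the other 2 arrays of its group, and without it the female difference was −1.79. The scanner software flagged the spot as well above background on 2 of 3 male dexamethasone arrays and on the other 9 arrays. Its raw brightness was 53.4 to 58.0 units in males given dexamethasone, against 341 to 382 units in males given vehicle, over a local background of 37 to 42 units.

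Nfe2 had levels of −6.29, −5.90 and −5.47 on male dexamethasone arrays, against −1.75, −3.11 and −2.97 on male vehicle arrays. Female arrays gave −4.89, −5.10 and −5.11 after dexamethasone, against −1.49, −0.80 and −0.18 after vehicle. The groups did not overlap within either sex, and the spread was narrower under dexamethasone than under vehicle in both: the SD was 0.41 in males given dexamethasone against 0.75 in males given vehicle, and 0.12 in females given dexamethasone against 0.65 in females given vehicle (n = 3). With the deposited background correction, Nfe2 was the only one of the 5 with the greater loss in females. Its differences were −3.27 ± 0.39 in males and −4.21 ± 0.39 in females, or 9.68-fold and 18.5-fold lower. With local background capped at its 99th percentile and an offset of 50, given below, Ranbp3l, Stap1 and Akap6 also had the greater loss in females. After dexamethasone Nfe2 was well above background on 1 of 3 male arrays and on 3 of 3 female arrays.

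Ranbp3l had levels of −8.50, −7.19 and −8.13 in males given dexamethasone, against −4.04, −4.70 and −4.30 in males given vehicle. In females they were −4.73, −6.28 and −7.47 after dexamethasone, against −3.40, −3.38 and −3.59 after vehicle. The 3 female dexamethasone arrays had the widest spread of the gene's 4 groups, an SD of 1.37. None of the male dexamethasone arrays was well above background, so the size of the male loss is not fixed. With that group set to the lowest signal called well above background on each array, the signal was 3.81-fold lower than under vehicle. That figure is no strict minimum. Spots not so called can be brighter, as Nfe2 was on male dexamethasone arrays 1 and 2 (−6.29 and −5.90, against −6.36 and −6.04). The figure also rests on the deposited background correction, and the loss was smaller with others given below. The measured means were −7.94 and −4.34 for dexamethasone and vehicle, a difference of −3.60 ± 0.56 that rests on spots not well above background. In females the difference was −2.71 ± 0.56, with 2 of 3 dexamethasone arrays well above background, and it was −2.05 without female dexamethasone array 1 and −3.42 without array 3.

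Stap1, on its first probe, had levels of −7.46, −8.01 and −5.42 in males given dexamethasone, against −3.29, −3.77 and −3.25 in males given vehicle. Female levels were −3.92, −3.81 and −4.16 after dexamethasone, against −2.17, −2.55 and −1.49 after vehicle. All groups were apart within a sex, but the female dexamethasone arrays were nearly as bright as the male vehicle arrays, the closest pair lying 0.04 apart. The difference was −3.53 ± 0.54 in males, and in females −1.90 ± 0.54, a 3.72-fold lower signal. Male dexamethasone array 3 was the only one of its group well above background and the highest, and without it the male difference was −4.30. With the other 2 arrays of that group raised to their lowest signal called well above background, the male means were −5.94 and −3.43 for dexamethasone and vehicle. The second Stap1 probe, well above background on 7 of 12 arrays, had levels of −7.48 to −6.08 after dexamethasone and −6.33 to −4.49 after vehicle in males, and −6.82 to −6.08 after dexamethasone and −6.34 to −5.38 after vehicle in females. Its groups overlapped in both sexes, with differences of −1.05 in males and −0.37 in females, so the 2 probes had the same direction and different sizes, and with the mean of both probes the Stap1 differences were −2.29 and −1.13.

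Akap6, on its first probe, had levels of −8.54, −8.18 and −7.09 in males given dexamethasone, against −3.61, −4.88 and −4.75 in males given vehicle. In females the levels were −6.51, −6.09 and −6.56 after dexamethasone, against −3.36, −4.89 and −3.18 after vehicle. Within each sex the groups were separate, and the vehicle arrays of the 2 sexes overlapped. The probe was not well above background on any male dexamethasone array. Set to the lowest signal called well above background on each array, it was 3.64-fold lower than under vehicle, again no strict minimum. The measured means were −7.94 and −4.41 for dexamethasone and vehicle. In females, where all 6 arrays were above background, the difference was −2.58 ± 0.51, a 5.96-fold lower signal. The second Akap6 probe was not well above background on any of the 12 arrays, with values of −8.57 to −7.39 after dexamethasone and −7.88 to −6.66 after vehicle in males, and −8.86 to −8.21 after dexamethasone and −8.09 to −7.39 after vehicle in females.

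**Figure D1:**
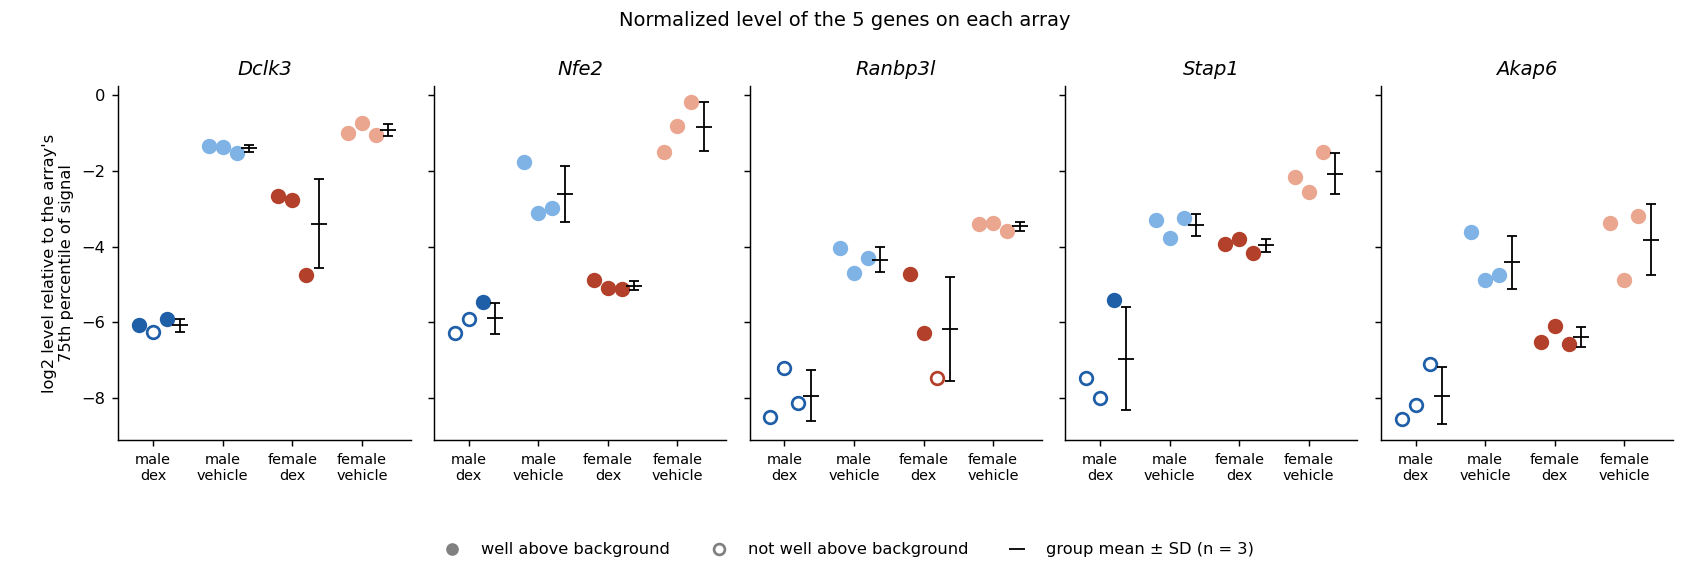
Normalized log2 level (relative to the 75th percentile of each array) of the 5 genes on each of the 12 arrays, by group, with filled points well above background, open points not, and bars for the mean and SD of 3 arrays. In each panel the dexamethasone points of a sex lie below all vehicle points of that sex, and 11 of the 12 open points belong to males given dexamethasone.

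Raw brightness shows how little signal was left in males given dexamethasone. Over all arrays the local background around the 5 spots was 35 to 43 units. Ranbp3l spots read 46.3 to 50.2 units in males given dexamethasone, against 77.0 to 96.4 in males given vehicle, and Akap6 spots read 45.4 to 49.7, against 74.6 to 112. Nfe2 spots read 54.9 to 57.3 units in males given dexamethasone, against 128 to 285 in males given vehicle, and Stap1 spots 47.3 to 59.4, against 103 to 126. In females given dexamethasone the spots read 78.9 to 175 units for Dclk3, 71.1 to 72.1 for Nfe2 and 90.4 to 105 for Stap1. Those of Ranbp3l read 52.3 to 76.7 and those of Akap6 54.8 to 59.3. No spot of the 5 genes was saturated on any array. By their first or only probe, 0 of the 5 genes were well above background on all 3 male dexamethasone arrays. On all 3 female dexamethasone arrays 4 were so, and on every vehicle array of both sexes 5 were so. With normexp and an offset of 50 in place of the deposited correction, the male difference turned positive for Ranbp3l (0.37), Stap1 (0.10) and Akap6 (0.38), and the female difference for Ranbp3l (0.02) and Akap6 (0.068). Dclk3 and Nfe2 stayed lower in both sexes under that setting, at −1.39 and −0.40 in males and −1.09 and −1.88 in females. The highest local background was 11368 units on male dexamethasone array 1 and 20654 on female dexamethasone array 3, against 54.5 to 103 on the other 10 arrays. With local background capped at its 99th percentile, a setting chosen after seeing the data, and the same offset, all 5 genes were lower in both sexes, with −0.41 for Ranbp3l, −0.65 for Stap1 and −0.41 for Akap6 in males and −0.79, −1.17 and −0.75 in females.

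**Figure D2:**
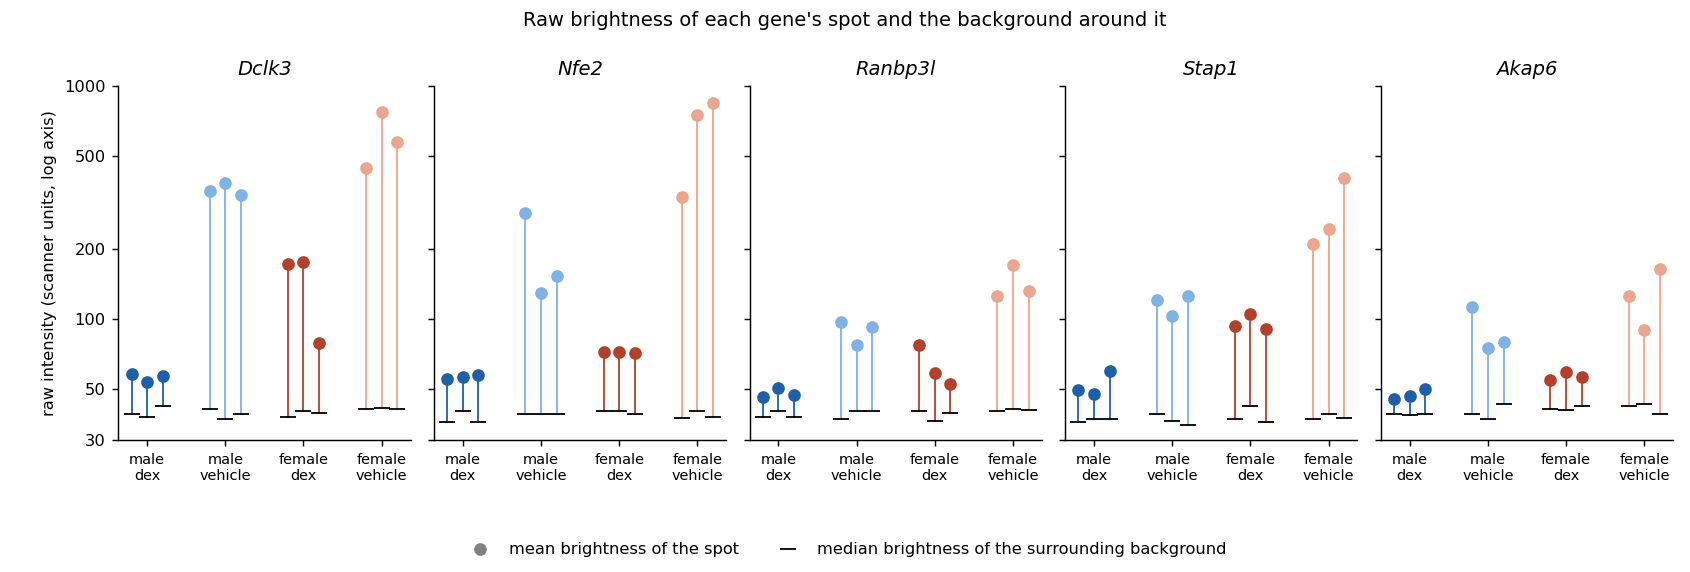
Raw mean brightness of each gene's spot (points, scanner units on a log axis) and the median background around it (black dashes) on every array. Background lies between 35 and 43 units throughout, and male dexamethasone spots lie between 45.4 and 59.4 units.

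For scale, limma at an adjusted p under 0.05 called 12.1% of all genes lower and 10.4% higher in males, 6.88% lower and 6.79% higher in females, and 5.57% lower and 4.78% higher in both sexes. All 3 dexamethasone arrays lay below all 3 vehicle arrays for 5 of 5 genes in each sex, against 21.5% of all genes in males and 15.4% in females, and nothing is read from either because the genes were chosen for this difference.

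Slides 1 and 3 each held males of both treatments, and slides 1 and 2 held females of both, so the differences were also taken within slides. Dclk3 differed by −4.91 on slide 1 and −4.62 on slide 3 in males, and by −2.04 on slide 1 and −2.71 on slide 2 in females. Nfe2 gave −4.14 and −2.77 in males and −4.30 and −3.51 in females, in the same order of slides. Every within-slide difference of the 5 genes was negative, and with slide as a block the differences over all arrays ran from −4.78 (Dclk3) to −3.41 (Nfe2 and Ranbp3l) in males and from −4.07 (Nfe2) to −1.73 (Stap1) in females. The widest disagreement was for Akap6 in females, −1.20 on slide 1 and −3.17 on slide 2, and for Stap1 in males, −4.72 on slide 1 and −2.67 on slide 3.

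**Figure D3:**
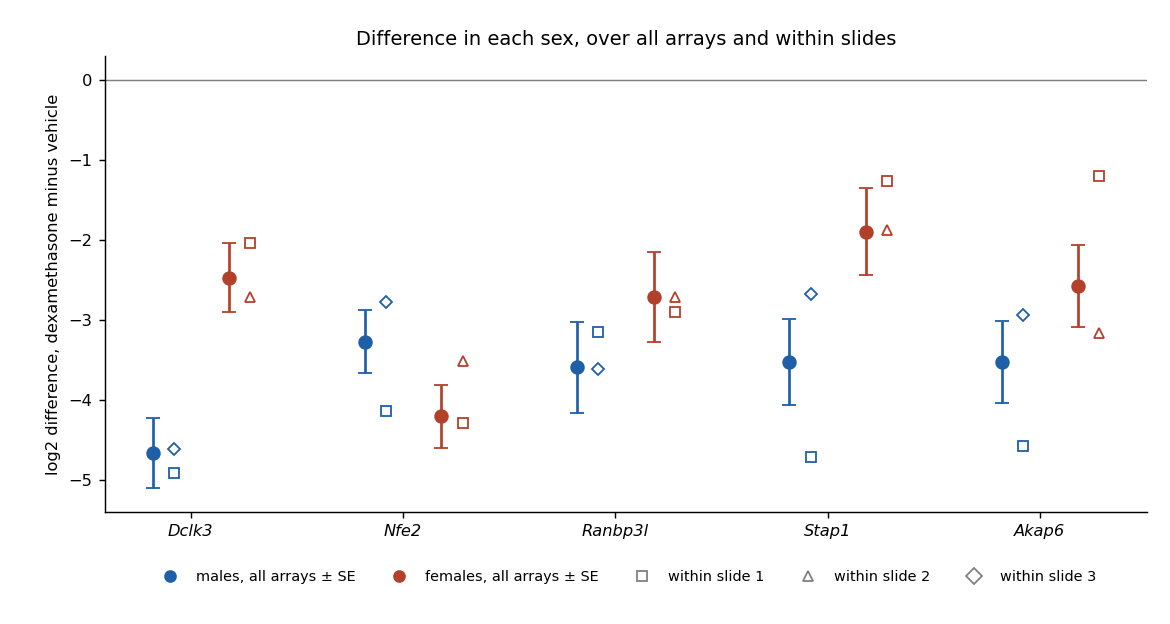
Dexamethasone minus vehicle (log2) for each gene in males and females, over all arrays with the standard error (filled points) and within each slide that held both treatments (open symbols). Every point is below 0, from −1.20 for Akap6 in females on slide 1 to −4.91 for Dclk3 in males on slide 1.

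Whether the sexes differ in these genes was tested on the mean over both treatments, in which the treatment differences cancel. Averaged over both treatments, the level was higher in females for 5 of 5 genes, and 3 of them passed the test. Stap1 was higher by 2.18 ± 0.38 (limma, adjusted p = 0.00548), Dclk3 by 1.58 ± 0.31 (adjusted p = 0.00923) and Nfe2 by 1.32 ± 0.28 (adjusted p = 0.0137), with 6 arrays in each sex. Ranbp3l (1.33 ± 0.40, adjusted p = 0.0562) and Akap6 (1.08 ± 0.36, adjusted p = 0.0827) did not pass. With slide as a block Stap1, Dclk3 and Nfe2 still passed (adjusted p = 0.0141, 0.0273 and 0.0279), and with normexp and an offset of 50 none of the 3 did (adjusted p = 0.804 to 0.949, differences 0.55 to 0.66). With the capped background and that offset all 3 passed (adjusted p = 0.0177 to 0.0462, differences 0.57 to 0.65). The Stap1 difference is that of its first probe: with the mean of its probes it was 1.07 (adjusted p = 0.0444), and the second probe averaged −6.34 in females and −6.63 in males under dexamethasone, and −5.97 in females and −5.58 in males under vehicle. Over all genes, 5.59% were called higher and 5.28% lower in females, and the median difference was −0.05. A female bias was also common among genes with a loss in both sexes, of which 1078 were called: 77.2% of them were higher in females and their median difference was 0.25, against a median of 1.33 for the 5 genes. All 5 values include male dexamethasone arrays not well above background, 1 of 3 for Dclk3, 2 of 3 for Nfe2 and Stap1 and 3 of 3 for Ranbp3l and Akap6.

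The sex differences within 1 treatment contain part of the treatment differences that chose the genes, so they are given as values with no test. Under dexamethasone, Stap1 was 3.00 ± 0.54 higher and Dclk3 2.68 ± 0.44 higher in females, and the 3 female arrays lay above the 3 male arrays for both. Nfe2 had 0.86 ± 0.39, Ranbp3l 1.78 ± 0.56 and Akap6 1.55 ± 0.51. Female and male arrays overlapped for Ranbp3l, with female array 3 at −7.47 and male array 2 at −7.19. Limma called 3.27% of all genes higher and 2.53% lower in females, and 11.7% had no overlap in that direction, as had 4 of the 5 genes. With normexp and an offset of 50 the Stap1 difference was 0.23 and that of Dclk3 0.71, and with the capped background they were 0.35 and 0.73. On slide 1, the only slide with both sexes under dexamethasone, Stap1 was 4.20 higher and Dclk3 3.48 higher in the female.

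Under vehicle the first or only probe of each of the 5 genes was well above background on every array. Nfe2 had the largest sex difference of the 5, 1.79 ± 0.39 higher in females. Within slides 1, 2 and 3 it was 0.95, 1.49 and 2.93 higher in females. The other values were 1.37 ± 0.54 for Stap1, 0.89 ± 0.56 for Ranbp3l, 0.60 ± 0.51 for Akap6 and 0.49 ± 0.44 for Dclk3. For 4 of the 5, all but Akap6, the 3 female vehicle arrays lay above the 3 male ones, against 8.28% of all genes. The Stap1 values are those of its first probe, and its second went the other way, with means of −5.97 in females and −5.58 in males. Limma called 0.657% of all genes higher and 1.31% lower in females under vehicle.

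**Figure D4:**
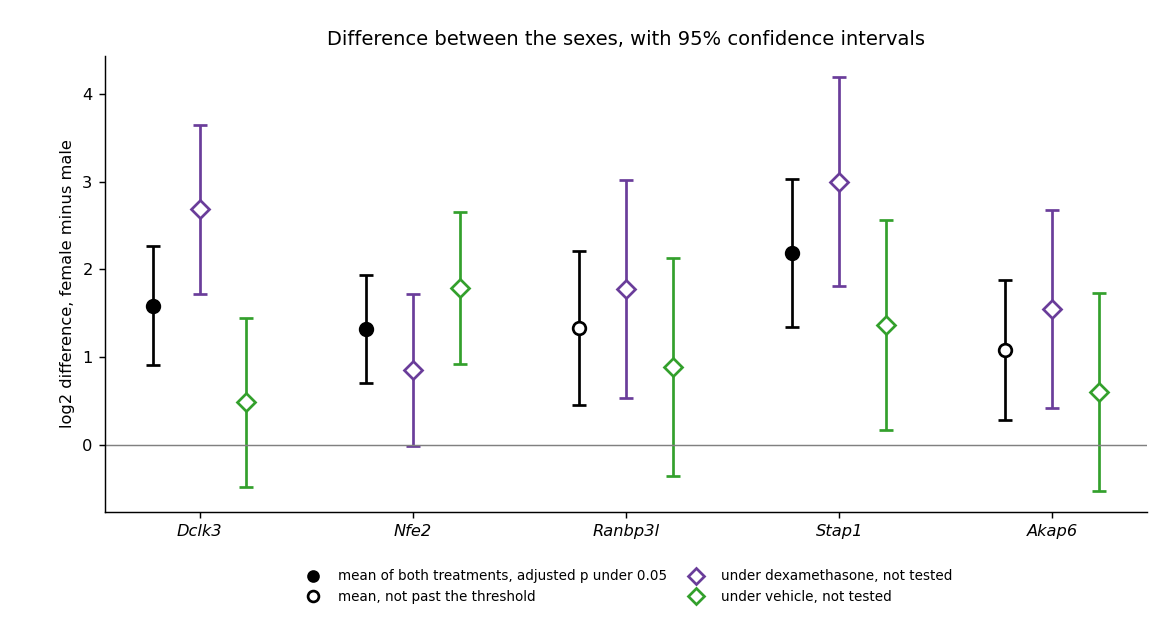
Female minus male difference (log2) with its 95% confidence interval for each gene, as the mean over both treatments (circles, filled where the adjusted p was under 0.05) and, not tested, under dexamethasone and under vehicle (diamonds). Points lie above 0 for all 5 genes in all 3 contrasts, and 3 of the 5 circles are filled.

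The female minus male difference of the dexamethasone responses is made of the very differences by which the genes were picked, so it too is a description. It was 2.20 ± 0.62 for Dclk3, 1.63 ± 0.76 for Stap1, 0.95 ± 0.72 for Akap6, 0.89 ± 0.80 for Ranbp3l and −0.93 ± 0.56 for Nfe2. The Dclk3 value moved to 2.87 without female dexamethasone array 3. Over all genes limma called 1 (0.00517%, in the negative direction) and 1033 were under 0.05 unadjusted.

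All 5 genes had the same order of group means: female vehicle highest, then male vehicle, female dexamethasone and male dexamethasone. The place of dexamethasone below vehicle within a sex was fixed by the choice of genes, and male vehicle above female dexamethasone goes with the choice of large losses, so nothing is read from the order. Of all genes 11.8% had this order, and of the 1078 genes called lower in both sexes 63.2% did. Neighbours in the order that overlapped were female and male dexamethasone for Ranbp3l (means −6.16 and −7.94) and female and male vehicle for Akap6 (means −3.81 and −4.41), and in both cases the gap was smaller than the sum of the groups' SDs. Female dexamethasone and male vehicle arrays of Ranbp3l and of Stap1 came within 0.04 of each other without overlap.

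The pathways of the 5 genes were read from lists written around them, with earlier results of these data known. Of 13 doublecortin-like and calcium/calmodulin-dependent kinases related to Dclk3, 1 fell in each sex (Camk1, −0.82 ± 0.19 in males and −0.80 ± 0.19 in females, adjusted p = 0.0115 and 0.0196) and 12 did not pass. Its closest relatives Dclk1 (0.21 and 0.01) and Dclk2 (−0.40 and −0.27) were among those 12. The list's median was −0.21 in males and −0.27 in females, where Dclk3 had −4.67 and −2.47 and the median of all genes was 0.01 and 0.02.

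Relatives and partners of Nfe2 moved both ways. Of 14 CNC, Maf and red-cell factors, 3 rose and 2 fell in males, and 2 rose and 1 fell in females, with medians of 0.04 and −0.06. Of all genes, 10.4% rose and 12.1% fell in males, and 6.79% rose and 6.88% fell in females. The CNC gene Nfe2l2 fell in males (−0.95 ± 0.14, adjusted p = 0.00118), with −0.44 ± 0.14 in females (adjusted p = 0.0563). Bach1, named after its value was seen, rose in males (1.03 ± 0.25, adjusted p = 0.0135), with 0.04 ± 0.25 in females (adjusted p = 0.948). Zfpm1, a cofactor of GATA factors, fell (−2.52 ± 0.34 in males and −1.56 ± 0.34 in females, adjusted p = 0.000914 and 0.0140), while Gata1, which directs red-cell and megakaryocyte genes, rose (1.57 ± 0.35 and 1.69 ± 0.35, adjusted p = 0.0103 and 0.0119). The small Maf genes Mafk, Mafg and Maff, whose proteins pair with that of Nfe2, did not pass in either sex. Of 8 markers of the platelet lineage, in which Nfe2 is known to act, limma called 0 in either sex (1 in males and 0 in females at an unadjusted p under 0.05), and all 8 were well above background on every array. Their summed linear signal, in multiples of the array's 75th percentile, was 0.86 to 1.10 in males given dexamethasone, against 0.84 to 1.18 in males given vehicle, and 0.80 to 0.98 in females given dexamethasone, against 0.87 to 0.99 in females given vehicle. Of 5 erythroid and 7 neutrophil markers 1 each fell in males, Epor (−0.84 ± 0.24, adjusted p = 0.0307) and Csf3r (−0.98 ± 0.21, adjusted p = 0.00925), and Epb42 and Rhag were well above background on 0 arrays.

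Ranbp3l stood in a list of 21 BMP, SMAD and Ran-transport genes of which 2 rose and 2 fell in males and 1 fell in females, with medians of 0.04 and 0.0021. Those called in males were Hamp, the iron hormone gene and a BMP target in hepatocytes (0.89 ± 0.23, adjusted p = 0.0193), Ranbp1 (0.62 ± 0.12, adjusted p = 0.00590), the inhibitory SMAD gene Smad6 (−0.84 ± 0.19, adjusted p = 0.00965) and the decoy receptor gene Bambi (−0.60 ± 0.12, adjusted p = 0.00550). The female call was the BMP receptor gene Acvr1 (−0.42, adjusted p = 0.0355), named after its value was seen. Ranbp3, the namesake of Ranbp3l, did not pass (0.12 in males and 0.25 in females).

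Of the 5 pathway lists, the one around Stap1 had the largest share of genes called lower in each sex. Of 14 genes of B cell receptor and TEC kinase signalling, 5 fell and 1 rose in males and 3 fell in females, with medians of −0.52 and −0.43, and 6 of the 14 were higher in females over both treatments, as Stap1 was. Blnk, an adaptor of the B cell receptor, fell by 2.44 ± 0.31 in males, with −2.45 ± 0.31 in females (adjusted p = 0.000661 and 0.00109). Plcg2, a phospholipase of the same route, fell in both (−1.11 ± 0.17 and −0.89 ± 0.17, adjusted p = 0.00161 and 0.00790), and Tec, Syk and the relative Stap2 did not pass in either sex.

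Several B cell markers fell, as Stap1 did. Of 10 tested, 7 fell in males and 5 in females, among them Ms4a1, a B cell surface protein gene (−3.02 ± 0.43 and −2.33 ± 0.43, adjusted p = 0.00113 and 0.00692), the IgE receptor gene Fcer2a (−2.34 ± 0.52 and −2.08 ± 0.52, adjusted p = 0.00953 and 0.0245) and Cd79b, a chain of the B cell receptor (−2.39 ± 0.47 and −1.86 ± 0.47, adjusted p = 0.00551 and 0.0268). Their summed level was 2.47 to 4.05 in males given dexamethasone, against 6.24 to 8.96 in males given vehicle, and 4.76 to 6.98 in females given dexamethasone, against 8.58 to 16.6 in females given vehicle. The group means were 3.04 and 7.24 for dexamethasone and vehicle in males and 5.72 and 11.7 in females. Their order was that of Stap1, but 63.2% of the 1078 genes called lower in both sexes had it, so nothing is read from it. Of the 12 listed, 8 were well above background on all 12 arrays and Blk on 0. In whole liver, fewer cells of a type and less RNA per cell cannot be told apart, and the part of B cells in the Stap1 values was not tested.

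Around Akap6, of 24 A-kinase anchoring and cAMP genes 3 rose and 3 fell in males, and 2 rose and 1 fell in females, with medians of 0.01 and 0.04. Akap8 (0.79 ± 0.16 in males and 0.59 ± 0.16 in females, adjusted p = 0.00633 and 0.0350) and Akap10 (0.51 ± 0.14 and 0.55 ± 0.14, adjusted p = 0.0253 and 0.0287) rose, and Akap12 fell in females (−0.86 ± 0.19, adjusted p = 0.0139). Pde4b, a phosphodiesterase gene that limits cAMP, fell by 1.73 ± 0.32 in males (adjusted p = 0.00412), with −0.52 ± 0.32 in females (adjusted p = 0.325). Of the muscle and nerve cells for which Akap6 and Dclk3 are known, 4 of 9 muscle and 4 of 8 nerve markers were well above background on all 12 arrays, and Myh6, Ryr2, Mb, Nefl and Nefm on 0. Of 5 muscle markers tested limma called 0, with 0 at an unadjusted p under 0.05, and of 5 neuronal ones 1 rose in each sex, Stmn2 (4.86 ± 0.91 and 3.78 ± 0.91, adjusted p = 0.00422 and 0.0210).

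The tissue's own hepatocyte markers were well above background on all arrays. Of these, 7 of 10 rose in males and 5 in females, opposite to the 5 genes, against 10.4% and 6.79% of all genes. The other 3 in males and 5 in females did not pass, among them Ttr (−0.39 and −0.59) and Trf (−0.12 and −0.08). Of 13 Kupffer cell and macrophage markers 6 were higher in females over both treatments, the direction of the 5 genes, against 5.59% of all genes. Few were called for dexamethasone: 1 rose and 1 fell in males, and 1 rose and 0 fell in females. Their sum was 79.9 to 155 in females given dexamethasone, against 54.5 to 71.6 in males given dexamethasone. Under vehicle it was 108 to 170 in females, against 74.5 to 117 in males. The part of either cell type in the values of the 5 genes was not tested.

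Within groups, some of the 5 genes varied together from array to array. The deviations of the 12 arrays from their group means, which hold no treatment or sex difference, correlated at r = 0.69 for Dclk3 with Ranbp3l and at r = 0.70 for Stap1 with Akap6, and the pairs of Nfe2 with Akap6 and with Stap1 had r = 0.56 and 0.46. The other 6 pairs lay between −0.10 and 0.22. Without female dexamethasone array 3 the Dclk3 and Ranbp3l value was 0.41, and without male dexamethasone array 3 the Stap1 and Akap6 value was 0.63. Part of the deviations come from spots near background. Of the 3 male dexamethasone arrays, Akap6 and Ranbp3l were well above background on 0 and Stap1 on 1. Ranbp3l was also not well above background on female dexamethasone array 3. These are descriptions over 12 arrays in which both genes of a pair were read from the same RNA and scan, and both leading pairs were picked after their values were seen.

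**Figure D5:**
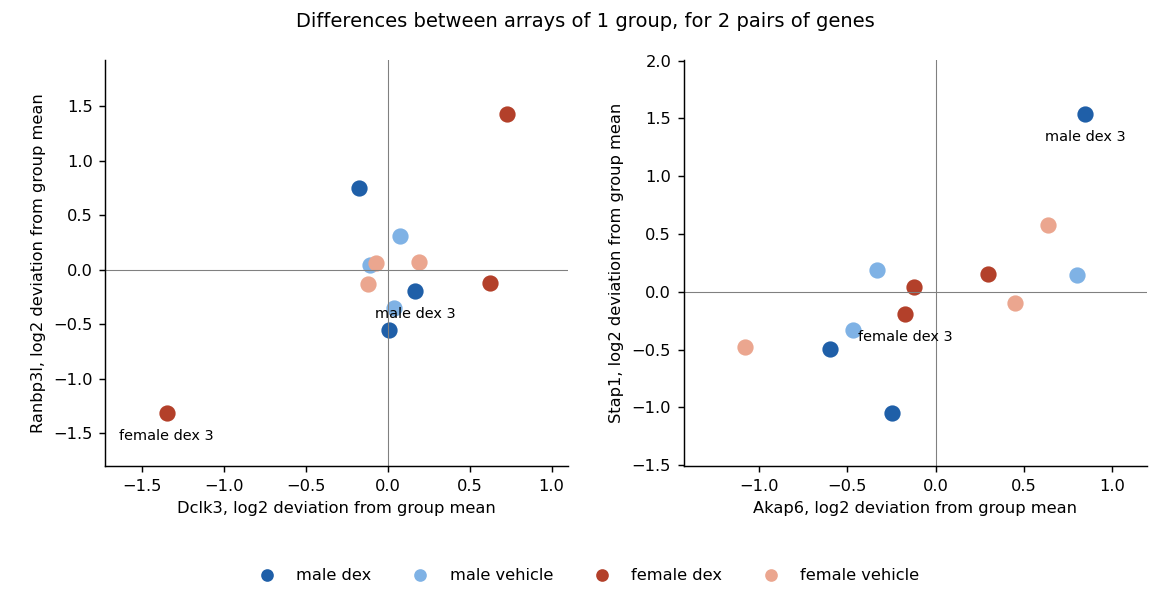
Deviation of each array from its group mean (log2) for Ranbp3l against Dclk3 (left) and Stap1 against Akap6 (right), 12 arrays coloured by group. Female dexamethasone array 3 is lowest on both axes at left, and male dexamethasone array 3 is highest on both axes at right.

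Over the 12 arrays, levels of other genes followed those of the 5 closely, and these correlations include the difference between groups by which the 5 were chosen. The 3 named genes most like Dclk3 were Cxcl10 (r = 0.99), Kcnj10 and Kank1 (both 0.98). For Nfe2 they were Tdp2 (0.99), Zbp1 and Psmb9 (both 0.98), and for Ranbp3l B4galt4 (0.98), 1600029I14Rik (0.98) and Ctdsp1 (0.97). Stap1 was matched by Acot3, Lmo7 (both 0.96) and Paqr8 (0.95), and Akap6 by Ap3m2 (0.98), Casp12 and Gadd45a (both 0.97). Cxcl10, a chemokine gene, had the same shape as Dclk3, with −5.06 in males and −3.01 in females. By deviations from group means, B4galt4 was again first for Ranbp3l (0.94), and the other 4 genes had other leading genes: Ttll3 for Dclk3 (0.98), Trp53bp1 for Nfe2 (0.89), Rnf185 for Stap1 (0.95) and Ccdc186 for Akap6 (0.94). Each was the highest value in a search of all named genes tested over only 12 arrays, which by itself picks high values, so nothing is read from them. The largest Dclk3 deviation was −1.35, on female dexamethasone array 3, and no value without that array was taken.

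RefSeq promoter sequence was matched for 2 of the 5 genes, Ranbp3l and Akap6, and searched because the 5 genes were lower together. The Akap6 window starts inside the annotated span of the gene and may overlap an exon of another of its transcripts. The Ranbp3l stretch is the 250 bases before the annotated start, in GRCm38.p6 coordinates, and is printed in lower case because no searched motif was found in it.
Ranbp3l, chr15:8967699-8967948, plus strand: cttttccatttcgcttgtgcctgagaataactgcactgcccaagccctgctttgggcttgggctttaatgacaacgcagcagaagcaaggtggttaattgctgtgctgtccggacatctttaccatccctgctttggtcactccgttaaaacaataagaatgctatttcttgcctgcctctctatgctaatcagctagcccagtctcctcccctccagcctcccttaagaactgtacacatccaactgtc
The motifs were searched on both strands: AGAACA, which binds 1 subunit of a glucocorticoid receptor dimer, is in 16.1% of all 32851 promoter windows of the same length. It is contained in the full palindromic glucocorticoid response element, in 0.00913% of them. TGANTCA, the core bound by NF-E2 and AP-1, is in 6.75%, CACGTG in 6.02%, TTATGNAA in 3.07% and TATAAA in 12.4%. Neither the Ranbp3l nor the Akap6 window held any of the 6, which says only that these letters are not in the 250 bases searched.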

How the data were processed

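Members, gene lists and tests were chosen with earlier results of these data known. The deposited scanner files hold intensities that the authors made with Agilent Feature Extraction 9.5, per the submitters' processing notes; per the file headers the processed intensity is background-subtracted and detrended, with surrogate values near background. The deposited series values equalled it for all 45018 spots of each array. From these, log2 was taken, the 75th percentile of the array's own non-control spots subtracted, outlier-flagged spots dropped and spots of a probe averaged. A probe entered if some group had it flagged well above background in all 3 animals (28842 did), and the brightest probe stood for a gene (19340). The second Akap6 probe did not pass this filter. Names were updated with RefSeq (GRCm38.p6). limma 3.58.1 (R 4.3.3; data.table version 1.17.8) fitted 4 group means to 12 arrays with 8 residual degrees of freedom, and Benjamini-Hochberg adjustment ran over all genes of a contrast, with a threshold of 0.05. The test was checked on simulated data. The animal was the replicate. The number of arrays limits precision. Named genes were the members, Fkbp5, up to 4 called genes per list with the largest mean absolute effect, the relatives named as not passing, and the 3 genes most correlated with each member. Motifs were searched with Python 3.11.15 and figures drawn with matplotlib 3.10.9. Alternatives were quantile normalization, normexp, filters on dim probes, slide and replicate blocks, the mean of probes and leaving out each array.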

Additional observations from a re-analysis of the deposited data

How the results depend on the processing

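The loss in both sexes kept its direction for all 5 genes under quantile normalization, no filter on dim probes, slide as a block, the replicate block, the mean of a gene's probes and each left-out array. Requiring probes well above background on all 12 arrays leaves none of the 5 genes, so it gives no value for them. With the mean of its probes Stap1 was at −2.29 in males and −1.13 in females.

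Normexp background correction with an offset of 50 moved males to −1.39 (Dclk3) and −0.40 (Nfe2) and turned Ranbp3l (0.37), Stap1 (0.10) and Akap6 (0.38) round. Females gave −1.09 (Dclk3), −1.88 (Nfe2) and −0.53 (Stap1), and Ranbp3l (0.02) and Akap6 (0.068) turned round. The highest local background was 20654 units on female dexamethasone array 3 and 11368 on male dexamethasone array 1, so the local background was also capped at its 99th percentile, a setting chosen after seeing the data. With the cap and offset 50 males were at −2.11 (Dclk3), −1.11 (Nfe2), −0.41 (Ranbp3l), −0.65 (Stap1) and −0.41 (Akap6), and females at −1.79, −2.62, −0.79, −1.17 and −0.75 in that order. With the cap and offset 0 males were at −3.68, −2.31, −1.70, −1.83 and −1.73, and in females Nfe2 was at −3.71, Ranbp3l at −1.75 and Akap6 at −1.83.

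For the mean female minus male difference, quantile normalization brought Ranbp3l (1.41, adjusted p = 0.0497) and Akap6 (1.29, adjusted p = 0.0400) past the threshold. Normexp with offset 50 lost Dclk3 (0.56), Nfe2 (0.66) and Stap1 (0.55), and with the cap Akap6 was at −0.016. Under dexamethasone the difference turned round for Nfe2 (−0.085 with normexp, −0.10 with the cap and offset 50), Akap6 (−0.15 and −0.18) and Ranbp3l (−0.051 with the cap and offset 50). The female minus male difference of responses turned round for Ranbp3l (−0.34 with normexp, −0.38 and −0.053 with the cap at offsets 50 and 0), Stap1 (−0.63, and −0.52 with the cap and offset 50) and Akap6 (−0.31, −0.34 and −0.11). The cause of these changes was not tested.

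Counts over all genes moved as follows. Normexp gave 904 genes in males (4359 in the fit reported), 538 in females (2644), 226 for the mean sex difference (2103), 90 under vehicle (381), 59 under dexamethasone (1123) and 0 for the difference of responses (1, with 1033 under 0.05 unadjusted). Without a filter on dim probes there were 4233 under dexamethasone and 2278 for the difference of responses. That last count was 0 with probes above background on all arrays, 0 with the mean of probes and 2 with the capped background at offset 50. Slide as a block gave 1228 for the mean sex difference and 244 under dexamethasone. The replicate block gave 244 under vehicle and 703 under dexamethasone. Replicate numbers did not pair the samples: deviations of same-numbered arrays correlated at −0.23 to 0.35 (mean −0.04), and 2 of 12 arrays correlated best with their own number.

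Leaving out each array in turn gave 2342 to 5026 genes in males (2342 without male vehicle array 1), 1504 to 2568 in females, 1221 to 2300 for the mean sex difference, 158 to 436 under vehicle, 455 to 1281 under dexamethasone and 1 to 32 for the difference of responses. Male differences ranged from −4.75 to −4.58 (Dclk3), −3.52 to −2.84 (Nfe2), −3.97 to −3.32 (Ranbp3l), −4.30 to −3.01 (Stap1) and −3.95 to −3.13 (Akap6). Female differences ranged from −2.83 to −1.79 (Dclk3), −4.54 to −3.89 (Nfe2), −3.42 to −2.05 (Ranbp3l), −2.14 to −1.61 (Stap1) and −3.12 to −2.26 (Akap6). Mean sex differences ranged from 1.40 to 1.92 (Dclk3), 1.16 to 1.54 (Nfe2), 0.98 to 1.66 (Ranbp3l), 1.92 to 2.57 (Stap1) and 0.92 to 1.35 (Akap6). Ranbp3l passed without male dexamethasone array 2 or female dexamethasone array 3 (adjusted p = 0.00987), and Akap6 did so without female vehicle array 2 (adjusted p = 0.0245), and also on leaving out male dexamethasone array 3 or male vehicle array 1.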
